A study of Homo sapiens with 12 samples.

Results

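RPE1 cells that had received siRNA against Anillin and were sorted at a 4N DNA content (Anillin 4N) were compared, across all genes, with RPE1 cells that had received a control siRNA and were sorted at 2N (control 2N). The comparison uses 6 of the 12 RNA-seq libraries of the study, 3 for each group, chosen by their labelled siRNA and ploidy. RPE1 is an established, immortalised line of human retinal pigment epithelial cells, and its 2N gate holds mostly cells in G1. Anillin (ANLN) is the scaffold of the contractile ring, and without it cells can enter mitosis but fail to divide. The 4N gate after Anillin siRNA can therefore hold G1 cells with a doubled genome beside cells in G2 and mitosis.

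All 4 groups of the study were grown in DMEM with 10% serum, transfected with Lipofectamine RNAiMAX for 24 h, and sorted by flow cytometry as live cells after 60 min at 37 °C in 2 µg/mL Hoechst 33342, a DNA dye. The control siRNA is labelled Random, and neither siRNA's sequence was used here. The other groups are Anillin 2N and control 4N, 3 libraries each, and they are used here only to place values beside the comparison. Anillin 4N differs from control 2N in both the siRNA and the DNA content, and in this comparison alone the 2 cannot be told apart. The labels do not tie the libraries of a group to separate cultures, so the p-values may rest on technical spread alone. In sorted bulk samples, fewer cells of a kind and less RNA per cell cannot be told apart either.

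Reads recovered from the deposited values numbered 17412742 to 61760450 per library, with 17412742 to 38854134 in Anillin 4N and 27991710 to 61760450 in control 2N. Mitochondrial genes took 3.69% to 3.90% of reads in control 2N and 3.87% to 4.31% in Anillin 4N. Of 15 markers of retinal pigment epithelium, only KRT18, KRT8 and OTX2 reached 0.5 RPKM, and the defining pigment and visual cycle genes RPE65, TYR, PMEL and RLBP1 stayed at or below 0.0625 RPKM in every library. The summed level of the 15, carried by KRT18, was 135 to 152 RPKM in control 2N against 99.8 to 109 in Anillin 4N. Among blood cell markers only CD68 was above 0.5 RPKM, and 10 markers of other epithelia and muscle summed to at most 0.270 RPKM in any library. The second control 2N library, the shallowest of its group, stood apart within it in proliferation genes, and the part of depth in this was not tested. It held the lowest value of the 3 for 76 of 80 tested mitotic genes and for 37 of 38 tested replication genes, against 51.9% of all genes tested.

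ANLN itself (chr7:36389806-36453791, plus strand of GRCh38, protein-coding) was at 1.88, 1.25 and 1.66 RPKM in control 2N against 0.0989, 0.0855 and 0.07003 in Anillin 4N. The ranges were far apart, and the recovered reads behind them were 2255 to 6558 per control 2N library and 99 to 176 per Anillin 4N library. The ratio of group means was 0.05302, and the log2 change on the log2(RPKM + 0.5) scale was -1.83 ± 0.10 (SE; limma adjusted p = 2.42e-06). The added 0.5 understates the change of a gene this low, and on recovered reads the log2 change was -4.28. ANLN was at 0.0609 ± 0.0229 RPKM (SD, n = 3) in Anillin 2N, the other group given the siRNA, and at 7.95 ± 0.485 in control 4N.

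As background, p53 is a transcription factor that is held low by MDM2 and stabilised by many stresses, among them failed cytokinesis, where extra centrosomes can activate the PIDDosome and caspase-2. Its target CDKN1A (p21) inhibits cyclin-dependent kinases and so keeps RB and its relatives active. These then silence E2F-driven genes of DNA replication and, through the DREAM complex, genes of G2 and mitosis. Mitotic genes are also high in any cells in G2 and low in any cells in G1, so their level in a sorted sample depends on the phases that the gate holds.

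Against control 2N, Anillin 4N had 1815 genes (14.1%) at a higher and 2039 (15.8%) at a lower level, of 12892 tested, by limma at an adjusted p under 0.05. On the log2(RPKM + 0.5) scale, which understates the changes of low genes, 27 genes (0.209%) rose and 33 (0.256%) fell by 2-fold or more. Of the 27, 8 belong to a list of p53 targets, and of the 33, 4 belong to a list of replication genes. The median change of all genes was -0.00307 on the log2 scale, so a list is read against a median near 0. Counts of list members are read against the shares of all genes called, 14.1% higher and 15.8% lower. The plot of change against level shows the p53 targets above the cloud, the replication genes below it and the mitotic genes in it.

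**Figure D1:**
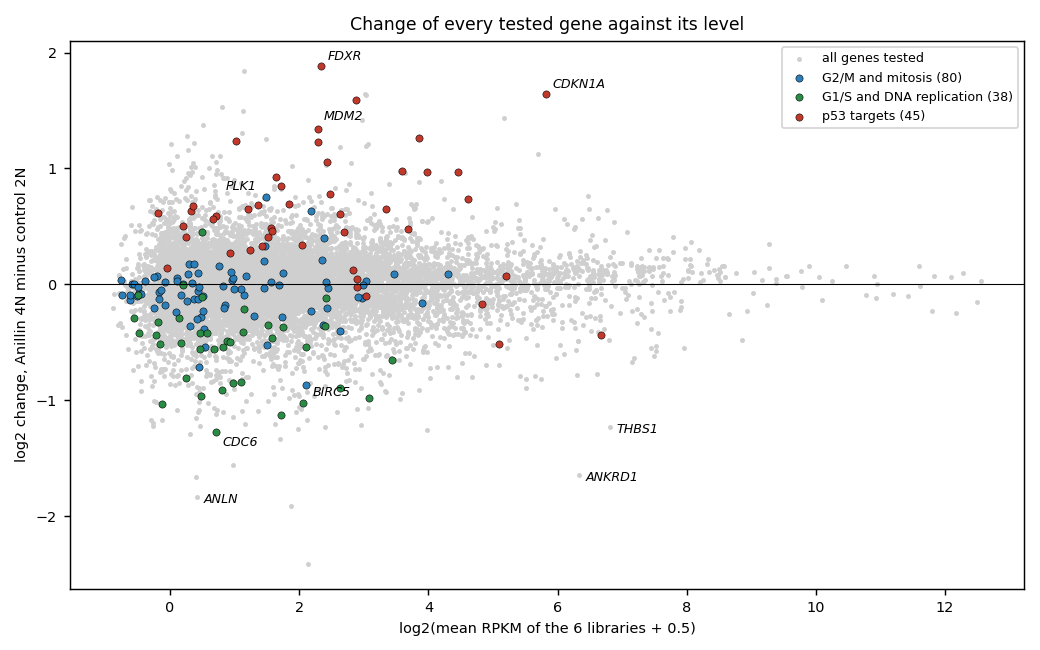
Log2 change of Anillin 4N minus control 2N (vertical axis) against log2 of the mean RPKM of the 6 libraries plus 0.5 (horizontal axis) for the 12892 genes tested, 1 point a gene, with 3 gene lists coloured. Replication genes lie mostly below 0, mitotic genes lie around 0 and p53 targets mostly above it.

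Among genes with a symbol, a mean of 2 RPKM or more in either group and libraries that did not overlap, the 12 largest rises were, in order, FDXR, CDKN1A, BTG2, NOG, HMOX1, MDM2, TRIAP1, ANGPTL2, BBC3, TP53INP1, RRAD and AEN. They ran from a log2 change of 1.05 ± 0.04 (SE) in AEN to 1.89 ± 0.06 in FDXR, and 8 of them, all but NOG, HMOX1, ANGPTL2 and RRAD, are in the list of p53 targets. Within the same limits, the 12 largest falls were MT-TP, ANKRD1, BNIP3P1, THBS1, IL6, JPT2, CXCL8, MCM3, HMGN2P32, EIF1AX, EIF1AXP1 and TOMM34, from -1.07 ± 0.08 to -2.41 ± 0.74. ANKRD1, THBS1, IL6 and CXCL8 encode a nuclear cofactor of stretched cells, a matrix glycoprotein and 2 inflammatory cytokines. BNIP3P1, HMGN2P32 and EIF1AXP1 are pseudogenes whose reads may come from their parent genes, and MT-TP is a mitochondrial tRNA, so these 4 values are uncertain. MT-TP was at 6.09, 4.69 and 8.12 RPKM in control 2N against 4.01, 0 and 0.374 in Anillin 4N, and its call was lost without the second or the third Anillin 4N or the first, the second or the third control 2N library (limma adjusted p from 0.053 to 0.116).

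The same 24 genes were set beside the other groups, which share libraries with this comparison, so the values are given side by side only. Of the 12 rises, 11 were also higher in Anillin 2N against control 2N by limma, 9 were higher in Anillin 4N against Anillin 2N, and 4 were higher in control 4N than in control 2N. Of the 12 falls, 10 were also lower in Anillin 2N against control 2N and 1, ANKRD1, was lower in Anillin 4N against Anillin 2N. In control 4N, 3 of the 12 falls were lower than in control 2N and 4 were higher. For Anillin 2N against control 2N, the shares of all genes called were 11.4% up and 17.1% down. In Anillin 4N against Anillin 2N these shares were 2.61% and 0.97%. In control 4N against control 2N they were 23.9% and 13.2%.

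**Figure D2:**
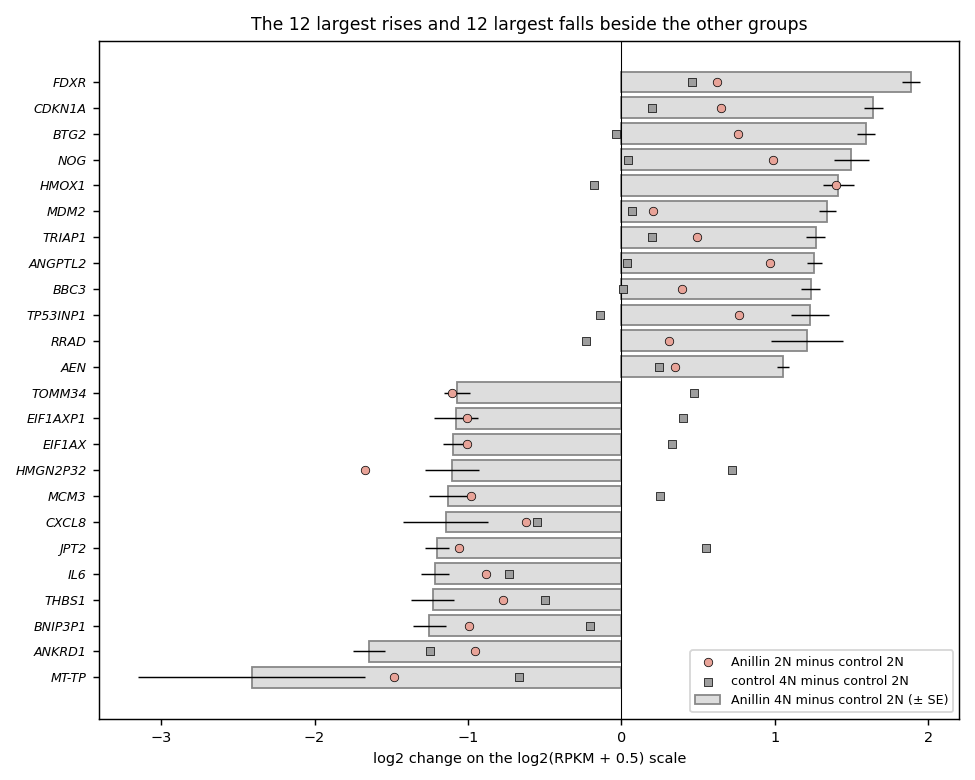
Log2 change on the log2(RPKM + 0.5) scale of the 12 largest rises and 12 largest falls: bars give Anillin 4N minus control 2N with SE, circles Anillin 2N minus control 2N and squares control 4N minus control 2N. For FDXR the bar reaches 1.89 and the circle 0.63, while for HMOX1 bar (1.41) and circle (1.40) nearly coincide, and so they do for EIF1AX and TOMM34.

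Genes that p53 activates rose together. Of 68 listed targets, 45 passed the filter on low values (an RPKM of 0.5 or more in 3 or more of the 12 libraries), and 37 of these were higher in Anillin 4N, 2 were lower and 6 did not pass the threshold. Their median log2 change was 0.61. On recovered reads, where 66 listed targets were tested, it was 0.80. In the 3 Anillin 4N libraries the list's median stood at 0.57, 0.64 and 0.61 above the mean of control 2N, and no control 2N library stood above 0.03. The list's median change was 0.23 in Anillin 2N against control 2N, 0.33 in Anillin 4N against Anillin 2N and 0.02 in control 4N against control 2N.

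Among the brakes on the cell cycle, CDKN1A (chr6:36676460-36687339, plus strand) was at 25.9, 28.2 and 26.9 RPKM in control 2N against 84.7, 86.9 and 83.9 in Anillin 4N. Every Anillin 4N library lay more than 2-fold above every control 2N library. The log2 change was 1.64 ± 0.06 (SE; limma adjusted p = 4.14e-07). CDKN1A was at 42.7 ± 2.02 RPKM (SD, n = 3) in Anillin 2N, between the other groups, and at 31.1 ± 2.70 in control 4N. BTG2, an antiproliferative factor that binds the deadenylase complex, was at 3.06, 3.35 and 3.02 RPKM in control 2N against 9.82, 11.04 and 10.7 in Anillin 4N. Its groups did not overlap and its log2 change was 1.59 ± 0.06 (SE; limma adjusted p = 3.98e-07). Of the other members of this role, CCNG1 (cyclin G1, 0.74), PLK3 (0.65) and ZNF385A (0.49) rose on the log2 scale, BTG1 (0.07) and GADD45A (-0.17) did not pass the threshold, and PLK2 fell by 0.44.

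MDM2, the ubiquitin ligase that removes p53 and is itself a p53 target (chr12:68808176-68850686, plus strand), was at 2.21, 2.42 and 2.14 RPKM in control 2N against 6.72, 6.46 and 6.28 in Anillin 4N. The lowest Anillin 4N library was more than 2-fold above the highest control 2N library, and the log2 change was 1.34 ± 0.06 (SE; limma adjusted p = 5.91e-07). MDM2 was 0.20 ± 0.06 (SE; limma adjusted p = 0.0212) above control 2N in Anillin 2N, while Anillin 4N stood 1.14 ± 0.06 above Anillin 2N. Of the regulators and partners on the list, MDM4 (0.14), TP53BP1 (-0.05) and the deubiquitinase USP7 (-0.10) moved by at most 0.14, and of these USP7 alone passed, at a limma adjusted p of 0.0495, and not without the first, the second or the third Anillin 4N or the first or the third control 2N library (limma adjusted p from 0.0518 to 0.157).

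The PIDDosome is a complex of PIDD1, CRADD and caspase-2 that cleaves MDM2 in cells with surplus centrosomes. PIDD1 was at 1.47, 1.38 and 1.58 RPKM in control 2N against 1.59, 1.86 and 1.83 in Anillin 4N. The groups lay next to each other without overlap, and the log2 change was 0.19 ± 0.06 (SE; limma adjusted p = 0.0412). The call was lost without the second or the third Anillin 4N or the first or the second control 2N library (limma adjusted p from 0.0965 to 0.133). CASP2 was at 1.32, 1.13 and 1.32 RPKM in control 2N against 1.22, 1.17 and 1.19 in Anillin 4N, with a log2 change of -0.05 ± 0.05 (SE) that did not pass the threshold. The other 8 of 14 listed genes of p53 and mitotic surveillance were below the filter.

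Promoter sequence is shown for MDM2 and AEN, 2 genes that rose, because both hold letters that match a full p53 element, with 2 mismatches each, close to a start site. The windows are the 100 bases before a RefSeq start, 5′ to 3′ on the gene's strand, from the RefSeq promoter table on GRCh38.p14: chr12:68808917-68809016 for MDM2, plus strand, and chr15:88621240-88621339 for AEN, plus strand. Capitals mark a pair of p53 half-sites without spacer, with 2 mismatches allowed to the consensus, read on either strand because the element is its own reverse complement. FAS was searched too, and no such window with a match was found for it.
MDM2: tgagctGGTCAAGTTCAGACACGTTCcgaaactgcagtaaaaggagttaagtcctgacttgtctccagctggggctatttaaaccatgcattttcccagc
AEN: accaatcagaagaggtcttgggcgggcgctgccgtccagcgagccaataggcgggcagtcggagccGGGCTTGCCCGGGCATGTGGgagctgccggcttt
The MDM2 match begins at position -94 and the AEN match at -34, counted from the base before the start as -1, and each has 2 mismatches. MDM2 has several starts in the table and is outside the counts that follow. Among 5154 tested genes with a single window (250 bases before to 50 after the start), 0.369% held such a match, and among 24 p53 targets 1 did. This search was chosen with the data already seen. A match is a description of these letters only.

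Of 18 listed apoptosis genes 15 were tested, and 13 rose while none fell. TRIAP1, an inhibitor of apoptosome assembly, was at 8.49, 7.49 and 7.97 RPKM in control 2N against 18.9, 20.6 and 20.2 in Anillin 4N, a log2 change of 1.27 ± 0.06 (SE; limma adjusted p = 1.57e-06). BBC3, which encodes the BH3-only protein PUMA, was at 0.677, 0.644 and 0.805 RPKM in control 2N against 2.34, 2.37 and 2.31 in Anillin 4N. It was low in both groups, but all Anillin 4N libraries were above all control 2N libraries, with a log2 change of 1.23 ± 0.06 (SE; limma adjusted p = 1.97e-06) and 1.71 on recovered reads. TP53INP1, a stress protein of the nucleus and autophagosomes, was at 2.21, 3.003 and 2.13 RPKM in control 2N against 6.39, 6.64 and 6.04 in Anillin 4N, a log2 change of 1.23 ± 0.12 (SE; limma adjusted p = 9.65e-05). AEN, an apoptosis-enhancing nuclease, was at 3.01, 2.89 and 3.102 RPKM in control 2N against 6.86, 6.57 and 6.86 in Anillin 4N, with hardly any spread inside either group and a log2 change of 1.05 ± 0.04 (SE; limma adjusted p = 3.98e-07).

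Both arms of the death machinery were among the other members that rose. BAX, the pore-forming effector of the mitochondrial pathway, rose by 0.97 ± 0.06 (SE), from 10.2, 9.73 and 10.5 RPKM in control 2N to 18.4, 20.99 and 21.7 in Anillin 4N. The death receptor FAS rose by 0.93 ± 0.06, TNFRSF10B (DR5) by 0.78 ± 0.05 and the decoy receptor TNFRSF10D by 0.85 ± 0.07. BCL2L1, which encodes the survival protein BCL-XL, also rose, by 0.46 ± 0.04. PMAIP1 (NOXA) was at 6.69, 7.23 and 6.43 RPKM in control 2N against 6.31, 7.58 and 7.201 in Anillin 4N, and it and PERP did not pass the threshold. These 7 genes were picked after their values had been seen.

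In DNA repair and nucleotide supply 6 of 7 members rose. FDXR, a mitochondrial ferredoxin reductase placed here by the list, was at 1.66, 1.62 and 1.68 RPKM in control 2N against 7.02, 7.95 and 7.41 in Anillin 4N. This was the largest rise of all named genes, with every Anillin 4N library more than 4-fold above every control 2N library and a log2 change of 1.89 ± 0.06 (SE; limma adjusted p = 2.20e-07). FDXR was at 2.83 ± 0.2895 RPKM (SD, n = 3) in Anillin 2N and 2.45 ± 0.0699 in control 4N. The nucleotide excision repair genes XPC (0.68) and DDB2 (0.51), the translesion polymerase genes POLH (0.41) and REV3L (0.14) and the p53-inducible ribonucleotide reductase subunit RRM2B (0.29) rose by smaller log2 amounts. PCNA, which is both a p53 target and an E2F-driven replication factor, was at 9.23, 6.21 and 8.59 RPKM in control 2N against 6.79, 7.73 and 7.59 in Anillin 4N and did not pass (-0.10 ± 0.13, SE).

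Of the 14 tested targets in metabolism, stress and trafficking, 12 rose. TIGAR, a phosphatase that lowers glycolytic flux, rose by 0.63 ± 0.03 (SE) and SESN2, an inhibitor of mTORC1, by 0.59 ± 0.04. The exception was LIF, a cytokine, which was at 43.05, 34.8 and 41.2 RPKM in control 2N against 25.1, 26.7 and 31.3 in Anillin 4N and fell by 0.51. LIF and PLK2 were thus the only listed targets lower in Anillin 4N by limma. EPHA2 (-0.02) did not pass. RRAD, a small GTPase outside the list, varied more than the targets above: it was at 6.24, 3.398 and 4.06 RPKM in control 2N against 9.57, 9.52 and 14.2 in Anillin 4N, a log2 change of 1.21 ± 0.24 (SE; limma adjusted p = 0.00397).

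**Figure D3:**
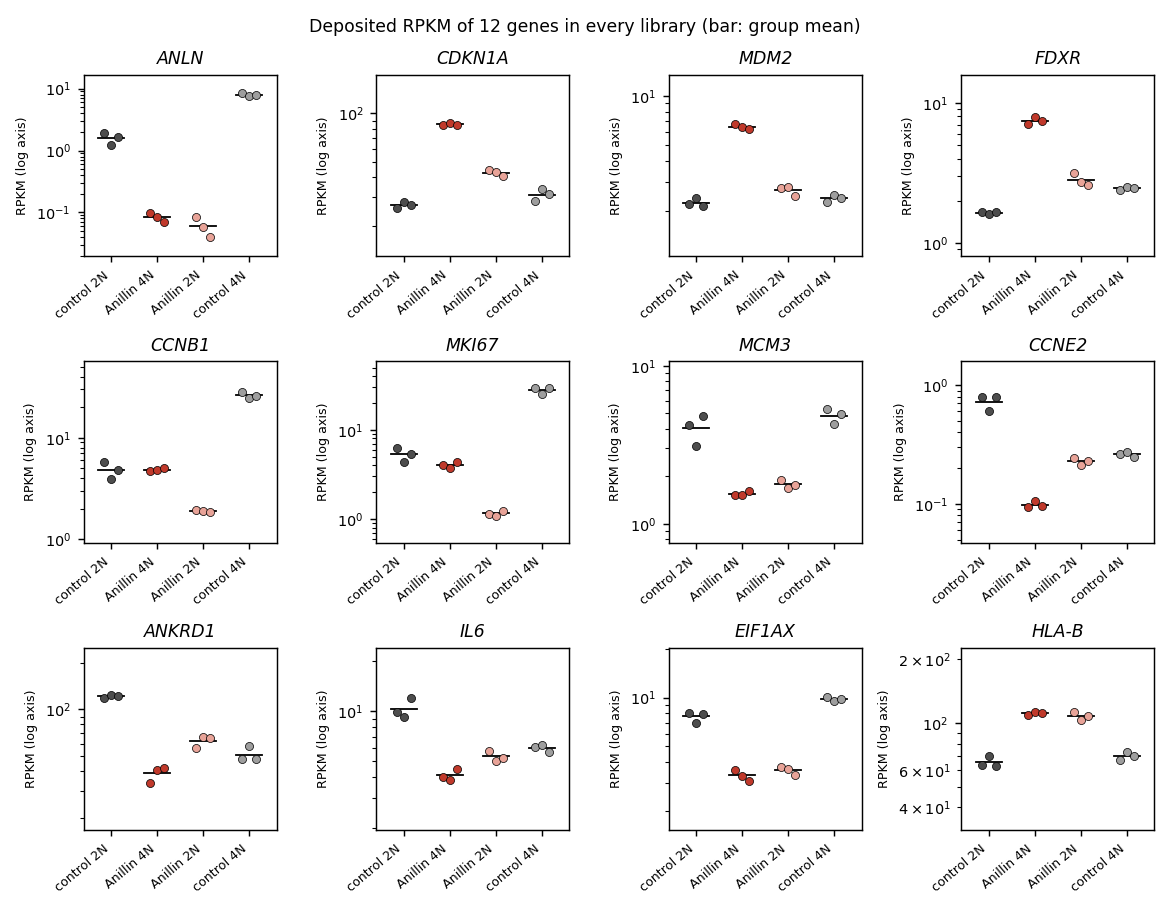
Deposited RPKM (log axis) of 12 genes in each of the 12 libraries, with a bar at each group's mean over 3 libraries. CDKN1A, MDM2 and FDXR are highest in Anillin 4N, CCNB1 and MKI67 lie near control 2N and far below control 4N, and MCM3 and CCNE2 lie below control 2N.

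Genes of G2 and mitosis stood near their control 2N level, although the Anillin 4N cells were sorted at the DNA content of G2. Of 83 listed genes 80 were tested; 3 were higher, 14 lower and 63 did not pass the threshold, against 14.1% higher and 15.8% lower over all genes. The median log2 change was -0.04, and -0.10 on recovered reads, where all 83 were tested. For 78 of the 80 the 95% confidence interval of the change lay wholly within 1 log2 unit of 0, and for 76 it did so on recovered reads. The same 80 genes had a median log2 change of 1.82 in control 4N against control 2N and of -1.86 in Anillin 4N against control 4N. Anillin 2N was lower still, at a median of -0.68 against control 2N, so that Anillin 4N stood 0.59 above Anillin 2N.

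CCNB1 (cyclin B1, the partner of CDK1 at mitotic entry) was at 5.77, 3.92 and 4.798 RPKM in control 2N against 4.71, 4.78 and 5.04 in Anillin 4N. The Anillin 4N values lay inside the control 2N range, and the log2 change was 0.02 ± 0.11 (SE; limma adjusted p = 0.913). In control 4N, CCNB1 was at 26.3 ± 1.95 RPKM (SD, n = 3) and in Anillin 2N at 1.89 ± 0.0507. CDC20, the activator of the anaphase-promoting complex, was at 12.2, 7.35 and 11.3 RPKM in control 2N against 10.8, 10.5 and 10.96 in Anillin 4N, with a log2 change of 0.09 ± 0.15, also within the control range. CCNA2, CCNB2, CDK1, AURKA, BUB1B and PTTG1 had log2 changes between -0.04 and 0.21, none past the threshold. MKI67 (the Ki-67 protein of the mitotic chromosome surface) was at 6.22, 4.33 and 5.405 RPKM in control 2N against 4.05, 3.75 and 4.33 in Anillin 4N. Its ranges met, with a log2 change of -0.35 ± 0.11 (SE; limma adjusted p = 0.0417), and the call was lost without the first, the second or the third Anillin 4N or the first or the third control 2N library (limma adjusted p from 0.0542 to 0.132).

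A few mitotic genes left the control 2N level. PLK1, the polo-like kinase of mitosis, was at 1.85, 1.21 and 1.702 RPKM in control 2N against 2.96, 2.87 and 3.15 in Anillin 4N. No library overlapped, and the log2 change was 0.75 ± 0.10 (SE; limma adjusted p = 4.16e-04). CDC25B, the phosphatase that starts CDK1 activation, was at 3.23, 2.66 and 3.298 RPKM in control 2N against 5.004, 4.97 and 5.02 in Anillin 4N and rose by 0.63 ± 0.07. The spindle protein gene TROAP was the third riser, by 0.33 ± 0.11 (limma adjusted p = 0.0433), a call lost without the first, the second or the third Anillin 4N or the second or the third control 2N library (limma adjusted p from 0.0526 to 0.139). All 3 were far higher in control 4N, at 15.1 ± 0.704, 13.6 ± 0.988 and 17.4 ± 0.882 RPKM (SD, n = 3).

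Of the mitotic genes that fell, BIRC5 (survivin, of the chromosomal passenger complex) fell most. It was at 5.92, 3.78 and 5.53 RPKM in control 2N against 2.72, 2.22 and 2.62 in Anillin 4N, without overlap and with a log2 change of -0.87 ± 0.14 (SE; limma adjusted p = 0.00154). PKMYT1, an inhibitory kinase of CDK1, changed by -0.71 ± 0.15, the centromere gene CENPM by -0.54 ± 0.14 and TMPO, which encodes the lamina-associated protein LAP2, by -0.52 ± 0.08. The call of CENPM was lost without the second Anillin 4N or the first or the third control 2N library (limma adjusted p from 0.0546 to 0.0603). By role, 6 of 12 tested genes of chromosome structure fell, among them the condensin genes SMC2, NCAPG and NCAPD2, against 0 of 18 kinesin and spindle genes. That difference between roles was not tested. The count of 14 depends on single control libraries: it was 29 without the second control 2N library, in which these genes were lowest, 6 without the first or the third, and 7 without the second Anillin 4N library.

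The promoters of 4 mitotic genes are shown for the letters TTTGAA, those of the CHR (cell cycle genes homology region). The CHR is an element through which DREAM and related complexes bind. Windows are the 100 bases before the RefSeq start on GRCh38.p14, 5′ to 3′: chr16:23678789-23678888 (plus strand) for PLK1, chr15:59105046-59105145 (plus) for CCNB2, chr1:43358881-43358980 (plus) for CDC20 and chr10:128126424-128126523 (minus) for MKI67. Capitals mark TTTGAA, searched on both strands.
PLK1: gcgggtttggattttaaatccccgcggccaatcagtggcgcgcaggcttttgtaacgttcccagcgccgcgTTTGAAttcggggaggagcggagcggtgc
CCNB2: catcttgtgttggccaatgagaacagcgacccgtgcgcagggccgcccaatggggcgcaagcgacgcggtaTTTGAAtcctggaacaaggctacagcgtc
CDC20: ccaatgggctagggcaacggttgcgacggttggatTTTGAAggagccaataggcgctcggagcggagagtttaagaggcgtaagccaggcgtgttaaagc
MKI67: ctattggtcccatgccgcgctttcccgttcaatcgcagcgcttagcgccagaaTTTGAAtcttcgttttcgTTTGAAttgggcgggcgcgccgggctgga
In PLK1 and CCNB2 the match begins at -29, in MKI67 at -47 and -29, and in CDC20 at -65. TTTGAA stood in the window of 36 of 52 mitotic genes with a single window (69.2%), against 9.20% of all 5154 such genes, 1 of 24 p53 targets and 1 of 24 replication genes. The 36 mitotic genes with TTTGAA had a median log2 change of -0.06 and the 16 without it one of -0.04. A match describes these letters only, and binding was not tested.

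Genes of the G1/S transition and DNA replication fell. Of 52 listed genes 38 were tested; 31 were lower in Anillin 4N, 1 was higher and 6 did not pass the threshold. The median log2 change was -0.49, and -0.83 on recovered reads, where 51 members were tested. The recovered reads include members below the filter and lack the added 0.5 RPKM that holds down low genes, so the medians differ in both. These genes were about as low in Anillin 2N (median -0.66 against control 2N) and above control 2N in control 4N (median 0.53). In 37 of 38 genes the second control 2N library was the lowest of its group, and without it the count of lower genes was 35.

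Licensing factors, which load the MCM helicase onto origins, led the falls. CDC6 was at 2.13, 1.28 and 2.07 RPKM in control 2N against 0.414, 0.423 and 0.5096 in Anillin 4N. Its Anillin 4N values were well below the control values and did not overlap them, with a log2 change of -1.27 ± 0.14 (SE; limma adjusted p = 1.65e-04). MCM3, a helicase subunit, was at 4.25, 3.09 and 4.79 RPKM in control 2N against 1.53, 1.51 and 1.61 in Anillin 4N, a log2 change of -1.13 ± 0.12 (SE; limma adjusted p = 1.67e-04). MCM4 was at 5.599, 3.79 and 5.87 RPKM in control 2N against 2.15, 2.07 and 2.42 in Anillin 4N, a log2 change of -1.02 ± 0.14 (SE; limma adjusted p = 4.98e-04). MCM2, MCM5, MCM6 and MCM7 fell too, with log2 changes from -0.97 to -0.66, so that all 6 subunits of the helicase were lower. In all, 22 of 27 licensing and fork genes were lower, and LIG1, GINS1, RPA2, GMNN and POLD1 did not pass.

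Among E2F factors and E cyclins, CCNE2 (cyclin E2, a partner of CDK2) was at 0.792, 0.5999 and 0.791 RPKM in control 2N against 0.0935, 0.105 and 0.0964 in Anillin 4N. The control values were several times higher, with a log2 change of -1.03 ± 0.06 (SE; limma adjusted p = 5.40e-06) and -2.89 on recovered reads. CCNE2 was lower in Anillin 4N against Anillin 2N as well (-0.28 ± 0.06, limma adjusted p = 0.0397). E2F1, an activator of this programme, changed by -0.91 ± 0.14 and E2F8, a repressor, by -0.29 ± 0.06. E2F7, a repressor and p53 target, went the other way. It was at 0.657, 0.666 and 0.7598 RPKM in control 2N against 1.14, 1.12 and 1.15 in Anillin 4N, a log2 change of 0.46 ± 0.04 (SE; limma adjusted p = 2.08e-05), and it was at 1.14 ± 0.0347 RPKM (SD, n = 3) in control 4N.

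In deoxynucleotide supply, 6 of 7 genes were lower, led by RRM2, the S-phase subunit of ribonucleotide reductase, which was at 12.8, 7.71 and 12.0 RPKM in control 2N against 5.06, 4.92 and 5.43 in Anillin 4N and changed by -0.98 ± 0.16 (SE). TK1 changed by -0.54 ± 0.14. TYMS (thymidylate synthase) was at 5.95, 3.81 and 5.505 RPKM in control 2N against 4.16, 4.77 and 4.78 in Anillin 4N and did not pass. RRM2, TK1 and TYMS were higher in Anillin 4N against Anillin 2N, by 0.71, 0.68 and 0.88 on the log2 scale, and passed the threshold there. RRM2, TK1 and TYMS were picked after their values had been seen.

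The promoters of E2F1 and MCM6, 2 genes that fell, are shown for their E2F-like elements. The windows lie at chr20:33686386-33686485 (minus strand) and chr2:135876444-135876543 (minus strand) of GRCh38.p14 and hold the 100 bases before the RefSeq start, 5′ to 3′. Capitals mark TTTCGCGC or TTTGGCGC on either strand, and in MCM6 matches on the 2 strands overlap. GINS2, CDT1, MCM3, RRM2 and TK1 were searched too, and no such window with a match was found for them.
E2F1: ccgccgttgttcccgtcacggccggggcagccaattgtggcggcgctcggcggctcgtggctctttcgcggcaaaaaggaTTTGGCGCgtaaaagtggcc
MCM6: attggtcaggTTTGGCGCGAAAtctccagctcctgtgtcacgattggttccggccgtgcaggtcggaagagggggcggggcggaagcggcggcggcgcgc
TTTCGCGC stood in the window of 4 of 24 replication genes with a single window, against 1.22% of all 5154. TTTGGCGC, chosen with the data already seen, stood in 5 of 24, against 1.11%. Either stood in 8 of 24 (33.3%), against 2.31% of all, 1 of 52 mitotic genes and 0 of 24 p53 targets. Here too a match describes letters only.

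Genes of homologous recombination, whose products repair breaks at forks and which are also cell cycle regulated, fell in 7 of 9 tested. FANCI changed by -0.47 ± 0.08, BRCA1 by -0.44 ± 0.07, RAD54L by -0.44 ± 0.08 and RAD51AP1 by -0.38 ± 0.06 (SE). BRCA1, a low gene on this scale, was at 0.382, 0.2804 and 0.394 RPKM in control 2N against 0.123, 0.1205 and 0.137 in Anillin 4N, and its log2 change on recovered reads was -1.45. The other 12 of 21 listed genes were below the filter on RPKM, and on recovered reads 18 members were lower, with a background of 13.9% of genes. With no filter on RPKM 15 of 21 were lower, and with a filter at 1 RPKM 3 of 3 tested. Of 41 listed replication-dependent histone genes, which are poorly caught when RNA is selected by poly(A), 19 were found by name in the deposited values. Of these 19, 8 passed the filter and were tested, and only H1-2 passed the threshold, at 0.40 ± 0.08.

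The D cyclins, their kinases and the other CDK inhibitors moved less than CDKN1A. CCND1 (cyclin D1) was at 30.6, 26.01 and 30.3 RPKM in control 2N against 29.7, 30.9 and 36.02 in Anillin 4N. The groups overlapped, and the log2 change was 0.15 ± 0.09 (SE; limma adjusted p = 0.242). CDKN1B (p27) was at 5.84, 5.91 and 5.94 RPKM in control 2N against 7.56, 8.14 and 8.63 in Anillin 4N, without overlap, a log2 change of 0.43 ± 0.05 (SE; limma adjusted p = 2.51e-04). CDKN1C (p57) was at 0.572, 0.585 and 0.426 RPKM in control 2N against 1.12, 1.01 and 1.05 in Anillin 4N, a log2 change of 0.61 ± 0.12 (SE; limma adjusted p = 0.0051), and stood close to this in Anillin 2N, at 1.003 ± 0.0982 RPKM (SD, n = 3). The pocket protein gene RBL2 (p130), the DREAM partner, rose by 0.21 ± 0.04, while RB1 changed by -0.13 ± 0.03, CDK2 by -0.39 ± 0.10, and CDKN2B (p15) by -0.29 ± 0.07. The call of RB1 was lost when the 6 libraries were fitted alone, and that of CDK2 without the first Anillin 4N or the first or the third control 2N library (limma adjusted p from 0.056 to 0.0621). In total 3 of 14 tested members were higher and 4 lower, against 14.1% higher and 15.8% lower over all genes.

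**Figure D4:**
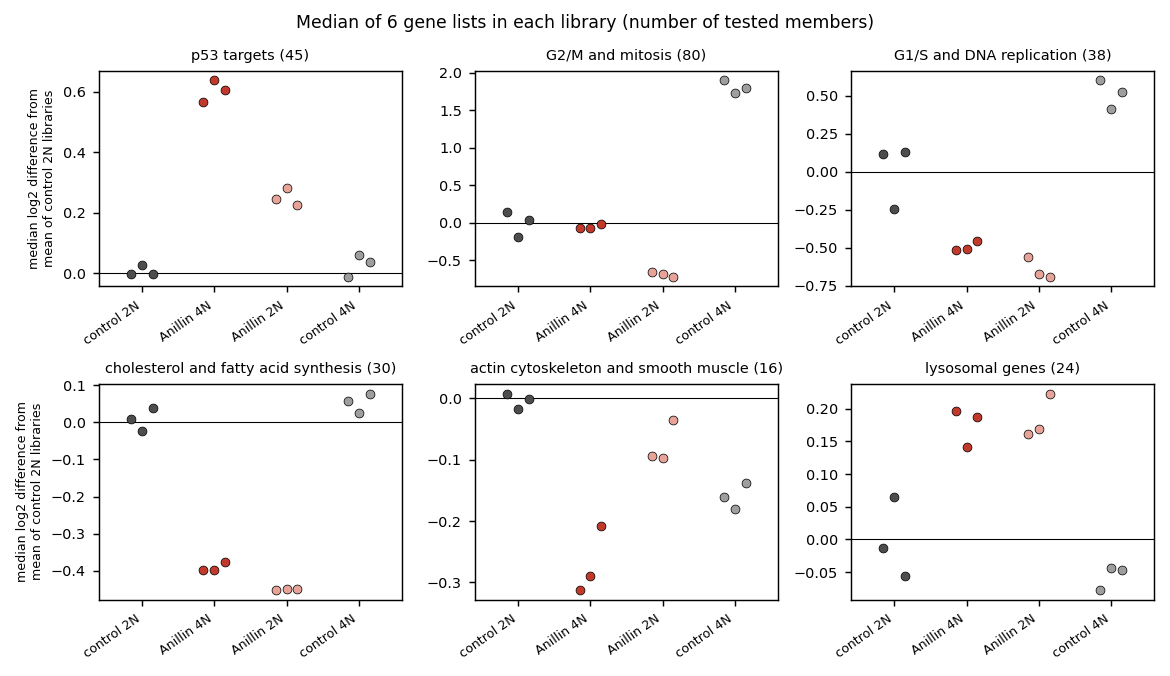
Median over the tested members of 6 gene lists in each of the 12 libraries, as the log2 difference from the mean of the control 2N libraries (vertical axis, a scale of its own in each panel). The p53 targets stand highest in Anillin 4N, mitotic genes there stand near 0, replication and cholesterol genes stand low in both Anillin groups, and the second control 2N library is the lowest of its group for mitotic and replication genes.

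Genes of the division machinery around ANLN were lower or did not pass the threshold. In the list of cytokinesis and septin genes 0 of 28 tested members were higher and 8 lower, ANLN included (median log2 change -0.07). Over all genes 14.1% were higher and 15.8% lower. For 25 of the 28 the 95% confidence interval lay within 0.5 of 0 on the log2(RPKM + 0.5) scale. The count of lower genes was 5 without the first Anillin 4N, 4 without the second Anillin 4N and 5 without the first control 2N library. CEP55, the midbody scaffold of abscission, was at 2.38, 1.42 and 2.08 RPKM in control 2N against 1.38, 1.26 and 1.36 in Anillin 4N, a log2 change of -0.40 ± 0.12 (SE; limma adjusted p = 0.0326), a call lost without the first, the second or the third Anillin 4N or the first or the third control 2N library (limma adjusted p from 0.063 to 0.102). SEPTIN11 (-0.27 ± 0.04) and SEPTIN9 (-0.26 ± 0.06), of the filament family that Anillin recruits, fell by small amounts. Among 16 centrosome and centriole genes, 2 were higher and 5 lower, against 14.1% higher and 15.8% lower over all genes. The latter count of 5 was 2 without the first Anillin 4N, 3 without the second Anillin 4N, 3 without the third Anillin 4N and 2 without the first control 2N library. CCP110, which caps centrioles, rose by 0.32 ± 0.04 and the linker gene CEP250 by 0.29 ± 0.05, while the centrin gene CETN3 changed by -0.27 ± 0.03. STIL, needed for centriole duplication, was at 0.234, 0.189 and 0.213 RPKM in control 2N against 0.124, 0.125 and 0.167 in Anillin 4N and changed by -0.16 ± 0.05, a call lost under quantile scaling and without the first or the second Anillin 4N or the first or the third control 2N library (limma adjusted p from 0.1 to 0.133).

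In the nuclear envelope and transport list 3 of 16 tested members were higher and 7 lower, a count of lower genes that was 4 without the first control 2N library and 4 when the 6 libraries were fitted alone. KPNA2, an importin gene that is itself high in mitosis, rose by 0.47 ± 0.09, from 10.2, 7.75 and 8.94 RPKM in control 2N to 12.04, 12.2 and 13.4 in Anillin 4N, and was at 59.5 ± 3.80 RPKM (SD, n = 3) in control 4N. KPNB1, of the importin beta family, changed by -0.44 ± 0.07, and LMNB2 (lamin B2) by -0.48 ± 0.12, a call lost without the second Anillin 4N or the first control 2N library (limma adjusted p from 0.0521 to 0.0524). Of 10 tubulin genes only TUBA1B passed, at -0.55 ± 0.14, with the lowest control value again in the second library (330.2, 225 and 331 RPKM in control 2N against 189, 193 and 215 in Anillin 4N), and its call was lost without the first or the third control 2N library (limma adjusted p from 0.0531 to 0.0547).

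YAP and TAZ are coactivators of TEAD factors that are switched off by the LATS kinases of the Hippo pathway, which tetraploid cells can activate. Of 23 tested targets, 14 were lower and 3 higher, with a median log2 change of -0.24. In control 4N against control 2N, 13 of the 23 were lower and 1 higher (median -0.16). Anillin 2N had 7 lower and 2 higher against control 2N (median -0.05). Between Anillin 4N and control 4N, 7 targets were higher and 7 lower in Anillin 4N (median 0.02, against -0.05 over all genes). Changes were common in that comparison, where 7345 of all 12892 genes had an unadjusted limma p under 0.05. These counts are therefore not read as a trait of the targets. ANKRD1, the target with the largest fall, was at 119, 124 and 122 RPKM in control 2N against 33.6, 40.6 and 41.98 in Anillin 4N. All Anillin 4N values were below all control 2N values, with a log2 change of -1.65 ± 0.10 (SE; limma adjusted p = 6.09e-06). ANKRD1 was at 62.7 ± 5.67 RPKM (SD, n = 3) in Anillin 2N and at 51.2 ± 5.697 in control 4N, so it was lower in each of the other groups as well. With the kinases and coactivators counted too, 16 of 31 were lower (10 when the 6 libraries were fitted alone) and 6 higher (3 without the second Anillin 4N, 3 without the third Anillin 4N and 3 without the third control 2N library). AMOTL2 changed by -0.72 ± 0.08 and IGFBP3 by -0.66 ± 0.07.

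The secreted matricellular targets CCN1 and CCN2 varied more. CCN2 was at 238, 255 and 165 RPKM in control 2N against 141, 149 and 156 in Anillin 4N, and its log2 change was -0.53 ± 0.14 (SE; limma adjusted p = 0.0157), a call lost without the first Anillin 4N or the first control 2N library (limma adjusted p from 0.0505 to 0.0591). CCN1 was at 204, 223 and 168 RPKM in control 2N against 144, 158 and 151 in Anillin 4N, a log2 change of -0.38 ± 0.09 (SE; limma adjusted p = 0.0106), a call lost when the 6 libraries were fitted alone. For both the third control 2N library lay nearest to the Anillin 4N values, and Anillin 2N did not pass against control 2N (0.12 ± 0.14 and 0.04 ± 0.09). Their values in control 4N were lower still, 114 ± 3.05 and 117 ± 6.08 RPKM (SD, n = 3). Of the pathway itself, YAP1 was at 1.73, 1.83 and 1.696 RPKM in control 2N against 0.886, 0.825 and 0.818 in Anillin 4N, a log2 change of -0.75 ± 0.03 (SE; limma adjusted p = 5.39e-07), and TEAD2 rose by 0.43 ± 0.04. Against control 2N, YAP1 changed by -0.72 ± 0.03 in Anillin 2N and stood 0.05 ± 0.03 above it in control 4N. GADD45B (0.45 ± 0.13) and FOXF2 (0.31 ± 0.09) were the largest rises among the targets. Both calls depend on single libraries: that of GADD45B was lost without the second or the third Anillin 4N or the third control 2N library (limma adjusted p from 0.0545 to 0.0815) and that of FOXF2 without the first or the second Anillin 4N or the first or the second control 2N library (limma adjusted p from 0.0639 to 0.0843).

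Genes of the actin cytoskeleton and smooth muscle fell in 11 of 16 tested and rose in none, with a median log2 change of -0.26. Control 4N had 8 of the 16 lower and 1 higher than control 2N (median -0.17), and Anillin 2N 3 lower and 2 higher (median -0.08). The median in Anillin 4N against control 4N was -0.05. LMOD1, an actin nucleator of smooth muscle, was at 1.61, 1.74 and 1.62 RPKM in control 2N against 0.679, 0.702 and 0.856 in Anillin 4N, without overlap, a log2 change of -0.79 ± 0.05 (SE; limma adjusted p = 1.03e-05). The tropomyosin genes TPM2 (-0.41 ± 0.05) and TPM1 (-0.40 ± 0.05) and ACTN4 (-0.39 ± 0.06) changed less. LMOD1, TPM2 and TPM1 were lower in Anillin 4N against Anillin 2N too, with log2 changes of -0.41, -0.30 and -0.28, and passed the threshold there.

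Matrix genes moved in both directions, mostly up. Of 30 tested matrix and TGF-beta response genes, 16 were higher and 3 lower, with a median log2 change of 0.20. ID2, an inhibitor of helix-loop-helix factors, was at 11.8, 13.5 and 11.6 RPKM in control 2N against 23.7, 23.5 and 22.6 in Anillin 4N, a log2 change of 0.89 ± 0.08 (SE; limma adjusted p = 3.33e-05). It was at a like level in control 4N, at 22.7 ± 1.27 RPKM (SD, n = 3). The matrix genes SPARC (0.65 ± 0.09), TNC (0.52 ± 0.08) and MMP2 (0.41 ± 0.06) rose, each with a similar change in Anillin 2N (0.83, 0.67 and 0.47). THBS1 (thrombospondin 1), in contrast, was at 166, 161 and 145 RPKM in control 2N against 62.2, 62.4 and 76.5 in Anillin 4N, a log2 change of -1.23 ± 0.14 (SE; limma adjusted p = 1.90e-04). COL8A1 (-0.37 ± 0.06) and CDH2 (-0.22 ± 0.05) were the other falls. The count of higher genes was 10 without the third Anillin 4N, 8 without the first control 2N and 9 without the third control 2N library. 

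Among 20 inflammatory and secretory genes, 10 were lower and 5 higher (median log2 change -0.18). Control 4N had 13 of the 20 lower and 2 higher than control 2N (median -0.53), and Anillin 2N 5 lower and 5 higher (median -0.04). Between Anillin 4N and control 4N the list's median change was 0.03. IL6 was at 9.88, 9.23 and 11.9 RPKM in control 2N against 4.05, 3.88 and 4.498 in Anillin 4N, with a log2 change of -1.22 ± 0.09 (SE; limma adjusted p = 1.57e-05). CXCL8 (interleukin 8) was at 3.13, 1.77 and 1.75 RPKM in control 2N against 0.561, 0.602 and 0.959 in Anillin 4N. The first control library was the highest by far, and the log2 change was -1.15 ± 0.27 (SE; limma adjusted p = 0.0114). CXCL2 changed by -1.09 ± 0.14 and CSF2 by -0.98 ± 0.20. All 4 had values below control 2N in control 4N as well (-0.73, -0.55, -0.75 and -0.67 on the log2 scale, CXCL8 not past the threshold). ANGPTL2, a secreted angiopoietin-like factor, went up, from 1.09, 1.18 and 1.19 RPKM in control 2N to 3.27, 3.53 and 3.58 in Anillin 4N, a log2 change of 1.26 ± 0.05 (SE; limma adjusted p = 5.09e-07). SCG2 (0.79 ± 0.13) and the plasminogen activator gene PLAU (0.56 ± 0.07) rose too. NOG (noggin, a BMP antagonist), in no list, was at 0.461, 0.694 and 0.773 RPKM in control 2N against 2.94, 2.89 and 2.33 in Anillin 4N, a log2 change of 1.50 ± 0.11 (SE; limma adjusted p = 1.66e-05).

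Cholesterol and fatty acid synthesis genes, targets of the SREBP factors, fell in 22 of 30 tested and rose in none, with a median log2 change of -0.41. SCD, the stearoyl-CoA desaturase gene, was at 40.4, 43.2 and 41.5 RPKM in control 2N against 26.5, 24.8 and 25.4 in Anillin 4N, tight in both groups, a log2 change of -0.70 ± 0.04 (SE; limma adjusted p = 7.36e-06). MSMO1 (-0.73 ± 0.05), INSIG1 (-0.72 ± 0.11) and HMGCS1 (-0.65 ± 0.05) changed alike. The list's median was -0.47 in Anillin 2N and 0.06 in control 4N, each against control 2N.

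Glycolysis genes fell in 12 of 18 tested and rose in none (median log2 change -0.29), a count that was 7 without the second Anillin 4N library and 7 without the third control 2N library. LDHA, lactate dehydrogenase A, was at 96.6, 96.01 and 106 RPKM in control 2N against 60.2, 57.1 and 56.1 in Anillin 4N, a log2 change of -0.78 ± 0.08 (SE; limma adjusted p = 1.33e-04). TPI1 changed by -0.55 ± 0.07, PGK1 by -0.48 ± 0.05 and PGAM1 by -0.32 ± 0.06. In the list of ribosome biogenesis and MYC network genes 0 of 25 tested members were higher and 9 lower, led by NCL (nucleolin), which was at 18.8, 16.4 and 19.9 RPKM in control 2N against 11.8, 11.9 and 12.4 in Anillin 4N and changed by -0.58 ± 0.07. The count of lower genes was 14 without the second control 2N library. RRS1 (-0.52 ± 0.09), NOLC1 (-0.47 ± 0.07) and DKC1 (-0.43 ± 0.10, not when the 6 libraries were fitted alone) followed. MYC itself, listed with the immediate early genes, was at 19.6, 20.2 and 23.8 RPKM in control 2N against 11.96, 12.4 and 13.8 in Anillin 4N, a log2 change of -0.71 ± 0.08 (SE; limma adjusted p = 1.75e-04).

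In the ATF4 and unfolded protein response list 2 of 32 tested members were higher and 19 lower (median -0.23). SLC7A5, an amino acid transporter gene, changed by -0.97 ± 0.10, HERPUD1, of endoplasmic reticulum degradation, by -0.92 ± 0.09, DDIT3 (CHOP) by -0.65 ± 0.07 and the chaperone gene HSP90B1 by -0.64 ± 0.04. HSP90B1 was at 75.1, 79.0 and 73.5 RPKM in control 2N against 47.7, 47.9 and 50.2 in Anillin 4N, with no overlap. NUPR1 (0.33 ± 0.05) and VLDLR (0.25 ± 0.05) rose. Among 20 heat shock and cytosolic chaperone genes, 11 were lower and 3 higher. HSPD1 changed by -0.37 ± 0.06, HSP90AA1 by -0.37 ± 0.06 and HSPH1 by -0.37 ± 0.05, while HSPA4L (0.34 ± 0.04) and the regulator gene HSF1 (0.28 ± 0.07) rose.

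Lysosomal genes rose in 15 of 24 tested and fell in 2 (median 0.17). PSAP (prosaposin) was at 54.1, 66.1 and 53.5 RPKM in control 2N against 84.3, 82.9 and 81.2 in Anillin 4N, a log2 change of 0.52 ± 0.08 (SE; limma adjusted p = 8.92e-04). SGSH (0.55 ± 0.06), GRN (0.49 ± 0.06) and TPP1 (0.48 ± 0.09) rose, and the cathepsin genes CTSL (-0.31 ± 0.04) and CTSB (-0.19 ± 0.04) fell. Antigen presentation genes rose in 7 of 11 tested and fell in none. HLA-B was at 63.2, 69.5 and 62.7 RPKM in control 2N against 109, 112 and 111 in Anillin 4N, a log2 change of 0.76 ± 0.05 (SE; limma adjusted p = 7.90e-06). HLA-C (0.45 ± 0.04) and the peptide transporter gene TAP1 (0.64 ± 0.04) rose too, though reads of the near-identical HLA genes can be split among them. Interferon-stimulated genes were mixed, 5 of 20 higher and 6 lower, against 14.1% higher and 15.8% lower over all genes. IFIT2 was at 1.01, 1.21 and 1.24 RPKM in control 2N against 0.499, 0.543 and 0.483 in Anillin 4N, a log2 change of -0.71 ± 0.06 (SE; limma adjusted p = 3.85e-05), and IFIT1 (-0.33 ± 0.06) and OAS3 (-0.32 ± 0.06) fell. Lysosomal and antigen presentation genes stood about as high in Anillin 2N, as the HLA-B panel and the panel of lysosomal medians show.

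Immediate early genes, which respond to serum and stress within minutes, split into 8 higher and 7 lower of 26 tested. Over all genes the shares were 14.1% higher and 15.8% lower. KLF4 (0.79 ± 0.11), JUND (0.65 ± 0.09), ATF3 (0.49 ± 0.12) and DUSP4 (0.49 ± 0.09) rose, while EGR3 (-0.80 ± 0.13) and DUSP5 (-0.69 ± 0.12) fell with MYC. HMOX1, the inducible heme oxygenase, was at 3.45, 3.65 and 4.202 RPKM in control 2N against 12.1, 10.9 and 9.74 in Anillin 4N. Its groups were far apart, with a log2 change of 1.41 ± 0.10 (SE; limma adjusted p = 1.16e-05), and Anillin 2N stood at 10.8 ± 1.35 RPKM (SD, n = 3), within the Anillin 4N range. The other NRF2 targets mostly did not pass. Of 16 tested, 2 were higher and 5 lower (3 without the second Anillin 4N library and 3 without the first control 2N library, and 2 when the 6 libraries were fitted alone), with NQO1 at -0.39 ± 0.04 and the ferritin gene FTH1 at 0.30 ± 0.06.

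**Figure D5:**
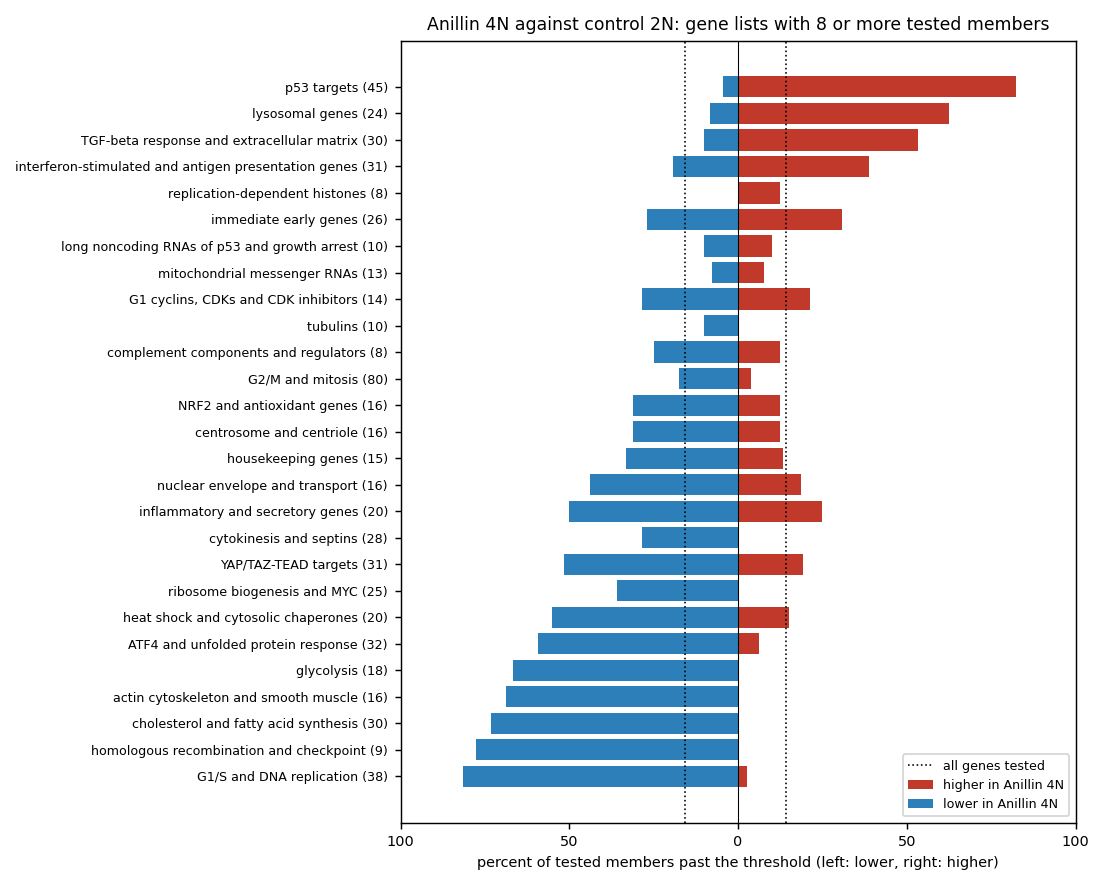
Percent of the tested members of each gene list that were higher (right) or lower (left) in Anillin 4N against control 2N by limma, for lists with 8 or more tested members, the number tested in parentheses. Dotted lines mark the shares over all 12892 genes, 14.1% higher and 15.8% lower.

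A set of falls was of similar size in both Anillin groups and was not seen in control 4N. EIF1AX, a translation initiation factor gene on the X chromosome (chrX:20124518-20141844, minus strand), was at 8.08, 7.002 and 7.92 RPKM in control 2N against 3.59, 3.298 and 3.08 in Anillin 4N. All Anillin 4N values were below every control value, with a log2 change of -1.10 ± 0.07 (SE; limma adjusted p = 4.92e-06). Anillin 2N was at 3.57 ± 0.205 RPKM (SD, n = 3), and control 4N at 9.76 ± 0.278. JPT2 was at 4.09, 3.298 and 4.002 RPKM in control 2N against 1.31, 1.33 and 1.45 in Anillin 4N, a log2 change of -1.20 ± 0.08 (SE; limma adjusted p = 6.52e-06), with -1.06 in Anillin 2N and 0.55 in control 4N against control 2N. TOMM34, of mitochondrial protein import, was at 5.38, 4.29 and 5.43 RPKM in control 2N against 2.17, 2.09 and 2.104 in Anillin 4N, a log2 change of -1.07 ± 0.08 (SE; limma adjusted p = 1.87e-05), with -1.10 and 0.47 in the same groups. Reads of EIF1AX and of its pseudogene EIF1AXP1 may be split between them. In none of these genes, nor in YAP1 above, did Anillin 4N against Anillin 2N pass the threshold. Effects of the siRNA on transcripts other than ANLN were not tested.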

How the data were processed

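Sorted RPE1 cells were profiled by RNA-seq in 12 libraries, grouped by the labelled siRNA and ploidy, 3 to a group. The authors deposited RPKM values for 57773 gene identifiers, 1 column per library. Per the submitters' processing notes, CASAVA 1.8.2, edgeR, TopHat2 and build hg19 were involved, with no role stated. The annotation, counter and strand setting were not given in the sources used here. The labels name a stranded mRNA kit and, in another field, ribo-depleted total RNA, so the selection of RNA is unsettled. Of 38571 genes above 0, 29239 had deposited RPKM values equal to whole reads (tolerance 0.01 read) over library total and genomic span, introns included. For the other 9332 a gene's own values gave the read size, as their common divisor (tolerance 0.001 read), which is bound to exist for genes above 0 in few libraries. Levels of different genes are therefore per genomic span. The further scaling between libraries lay between 0.951 and 1.04.

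The 12892 genes with 0.5 RPKM or more in 3 or more of 12 libraries were tested with limma-trend (limma 3.58.1, R 4.3.3) on log2(RPKM + 0.5), with 1 mean per group over all 12 libraries. P-values were two-sided and Benjamini-Hochberg adjusted across these genes, and 0.05 was the threshold. Limma-voom on recovered reads (10 reads or more in 3 or more libraries, 22404 genes) was 1 of 16 alternatives. Others were the pseudocounts 0.1 and 1, no filter, a filter at 1 RPKM, quantile and median-of-ratios scaling, the 6 libraries alone, log2 RPM, reads thinned to 17412742 per library, and each library left out. Gene names were taken from a name table or else from GENCODE 29, and 5435 identifiers stayed unnamed. GENCODE 29 also gave the coordinates, on GRCh38 and not on hg19. Of the tested genes, 7010 matched the RefSeq promoter table.

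The comparison, the 32 gene lists and the tests were chosen with earlier results of these data known. Lists are described by counts and medians, with no test of a list. Named were the 12 largest rises and 12 largest falls past the threshold with a symbol, a mean of at least 2 RPKM in 1 group and no overlap of libraries. Per list, up to 4 members with the largest change in the commoner direction and up to 3 in the other were named, and some genes always (ANLN, CDKN1A, MDM2, CCND1, CCNB1, CCNE2, MKI67, PIDD1, CCN1, CCN2, ACTB, GAPDH, and 1 other that is not reported here). Other list members named in the text were picked after their values had been seen. Figures were made with matplotlib 3.10.9, and tables with pandas 2.3.3 and numpy 2.4.6.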

Additional observations from a re-analysis of the deposited data

How the results depend on the processing

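No paired analysis was possible because the labels give no replicate numbers shared between the groups. Of 164 named genes 160 were called, and 129 of these kept their direction and their side of the threshold under every one of the 16 alternatives in which they were tested, 136 without any 1 library. The one reversal was STIL, at 0.0164 on the log2 scale under quantile scaling. Genes higher in Anillin 4N numbered 1815, and 3106 by voom on recovered reads or 2796 on log2 RPM, where 22404 genes were tested. Genes lower numbered 2039, and 3108 or 3460 in the same fits. Leaving out 1 library gave 1318 to 1530 higher and 1520 to 2251 lower. Reads gave the same call for 93.7% of the RPKM calls that could be tested there. The p53 targets higher numbered 36 to 38 without 1 library and the replication genes lower 27 to 35. Of these counts, that of mitotic genes lower moved the most: 14, but 9 with no filter, 6 in the 6 libraries alone, 22 by voom on recovered reads, 24 on log2 RPM, and 6 to 29 without 1 library. The cause of these shifts was not tested. With 3 libraries a group, and 2 Anillin 4N libraries the shallowest of the 12, small changes of low genes are the least certain. Quantile and median-of-ratios scaling moved the median change of all genes to 0.00406 and 0.00734.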

Other observations

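Of 10 tested long noncoding RNAs, 1 was higher and 1 lower, against 14.1% higher and 15.8% lower over all genes. The higher one was NEAT1, the scaffold of paraspeckles. NEAT1 was at 28.8, 32.4 and 31.1 RPKM in control 2N against 55.5, 49.0 and 46.2 in Anillin 4N, a log2 change of 0.70 ± 0.12 (SE; limma adjusted p = 0.00209), and Anillin 2N lay between, at 40.3 ± 6.397 RPKM (SD, n = 3). Of 13 mitochondrial messenger RNAs, 1 was higher and 1 lower, again beside 14.1% and 15.8% over all genes. The lower was MT-ND6, the one encoded on the light strand, which changed by -0.91 ± 0.22. MT-ND6 was at 17.4, 14.5 and 23.1 RPKM in control 2N against 10.7, 7.37 and 10.3 in Anillin 4N. Its reads cannot be told apart from antisense reads, since the use of strand in counting is unknown here.

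Of 15 housekeeping genes, 2 were higher and 5 lower, against 14.1% higher and 15.8% lower over all genes. GAPDH was at 1141, 1062 and 1242 RPKM in control 2N against 1025, 1051 and 1049 in Anillin 4N and did not pass (-0.14 ± 0.08, SE), while ACTB was at 178, 155 and 179.9 RPKM in control 2N against 134, 142 and 152 in Anillin 4N, a log2 change of -0.26 ± 0.06 (SE; limma adjusted p = 0.0104). YWHAZ (-0.39 ± 0.04) and TFRC (-0.39 ± 0.05) fell. The calls of ACTB and of C3 below were lost when the 6 libraries were fitted alone. Of 8 complement genes, C3 rose by 0.35 ± 0.08 and the membrane regulator genes CD55 (-0.27 ± 0.04) and CD59 (-0.18 ± 0.03) fell. C3 was lower in Anillin 4N against Anillin 2N (-0.45 ± 0.08, limma adjusted p = 0.0129). Among 5 tested IGF binding protein genes, IGFBP3 and IGFBP6 (-0.30 ± 0.05) fell. The keratin gene KRT18, of simple epithelia, was at 127, 122 and 138 RPKM in control 2N against 86.9, 96.6 and 93.2 in Anillin 4N, a log2 change of -0.48 ± 0.06 (SE; limma adjusted p = 3.01e-04).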
